A study of Citrus sinensis with 72 samples.

Results

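The genes described here are the 100 whose transcript level varied least over the tissues and stages of developing navel orange fruit. The level of a gene in a group of samples was log2(mean FPKM + 1), where FPKM is the number of sequenced fragments of a gene scaled to the length of its transcript and to the total of the library. The members were the 100 genes with the smallest range, which is the highest minus the lowest level over 24 groups. They were drawn from the 3384 of 30940 genes that had a mean level of at least 5 over the groups and a highest group mean of up to 3000 FPKM, called the genes within the level limits below. Since the ranges chose the members, their ranges and group levels are given as a description, without a test.

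Genes with steady transcripts are used as internal references in transcript measurements, because the level of a gene of interest is commonly read against a transcript that is taken to be constant. Many such genes serve functions that every living cell needs, such as protein synthesis and turnover, the cytoskeleton, membrane traffic and RNA processing. In fruit this is a demanding property, since the peel and the flesh differ in cell types and the same tissue passes through cell division, expansion, colouring and ripening. The table pairs no gene ID with a name, and 0 of its 30940 IDs matched the reference annotation, so the members are called by their IDs and their functions are not given.

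All fruit came from the sweet orange *Citrus sinensis*, cultivar ‘Fengjie 72-1’, grafted on 1 kind of rootstock and grown in 1 orchard, with no treatment. The tissues were dissected by hand: albedo (AL, the white inner peel), segment membrane (SM), juice sac (JS) and epicarp (EP, the coloured outer peel). Stages 1 to 6 were, per the labels, day 50, day 80, day 120, day 150, day 180 and day 220 after flowering. Each of the 24 combinations of a tissue and a stage had 3 biological replicates, each a pool of fruit from several trees, giving 72 libraries. The same set of trees was sampled at every stage, so libraries of different groups may not be independent. These were whole tissues, in which fewer cells of a type and less RNA per cell cannot be told apart. FPKM values are relative to the rest of each library, so a steady FPKM is a steady share of the sequenced fragments, corrected for length.

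The 72 libraries held between 15365222 and 25424357 fragments, with a median of 19458684. RNA integrity, as the paper lists it, was mostly lower in the EP and AL samples than in the SM and JS samples. Differences of EP and AL from SM and JS therefore cannot be told apart from RNA quality. For 3 libraries, replicate 1 of EP2, of AL2 and of AL3, the library with the highest correlation over 20077 genes belonged to another group. Leaving those 3 out, the rule chose 88 of the same 100 genes.

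The highest group mean of a member was between 1.33 and 1.90 times its lowest group mean. The median of that fold was 1.79 among the members, against 3.98 among all genes within the level limits. On the level scale, the ranges of the members ran between 0.41 and 0.90 log2 units with a median of 0.82, and the median of all genes within the limits was 1.95. There was no gap at the edge of the set: the members Cs5g29000 and Cs5g23040 just inside it had ranges of 0.8984 and 0.8987, and Cs9g11530 and Cs2g23890 just outside had 0.8999 and 0.9007. At the steady end there was one. The gene Cs5g33020 had a range of 0.41, and the gene ranked after it, Cs9g19380, had 0.58, a step of 0.1679 log2 units.

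Cs5g33020 was measured at 57.7 to 99.8 FPKM over all 72 libraries, with a mean of 73.3 ± 8.48 (SD, n = 72). Its lowest, median and highest values were 57.7, 73.6 and 99.8 FPKM in AL, 58.7, 68.4 and 84.4 FPKM in SM, 62.5, 71.9 and 74.9 FPKM in JS, and 63.9, 78.3 and 94.0 FPKM in EP (18 libraries each). The 4 tissues overlapped widely, and the widest scatter lay in AL, where replicates 1 and 2 of AL3 gave the values 57.7 and 94.6 FPKM. Replicate 1 of AL3 was 1 of the 3 libraries that correlated best with a library of another group. The group means of Cs5g33020 lay between 62.5 FPKM in SM2 and 83.4 FPKM in EP3. In JS, its 6 stage levels spanned 0.12 log2 units, the smallest of its tissues, against 0.28 in SM.

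The other 3 members with the smallest ranges were Cs9g19380, Cs1g16500 and Cs8g17010, and they were steady in different ways. Cs1g16500 had 49.5 to 83.3 FPKM over the 72 libraries and the smallest SD between replicates of any member, 0.10 log2 units. The order of the tissues still changed with stage, since its group mean was highest in EP at stages 1 to 3 and in SM at stages 4 and 5. Cs9g19380 was the opposite case, with 19.6 to 64.0 FPKM over the libraries and an SD between replicates of 0.24 log2 units. Both of its extremes came from 1 group, AL3, where the 3 replicates gave 19.6, 64.0 and 45.7 FPKM. The lowest of them, replicate 1, was 1 of the 3 libraries that correlated best with a library of another group. The replicates of AL3 differed more than any 2 of the group means of Cs9g19380, which ran between 37.0 and 55.7 FPKM. Cs8g17010 was the most abundant of the 4, with 148 to 290 FPKM, and its highest group was SM6 at 248 FPKM and its lowest EP5 at 165 FPKM.

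**Figure D1:**
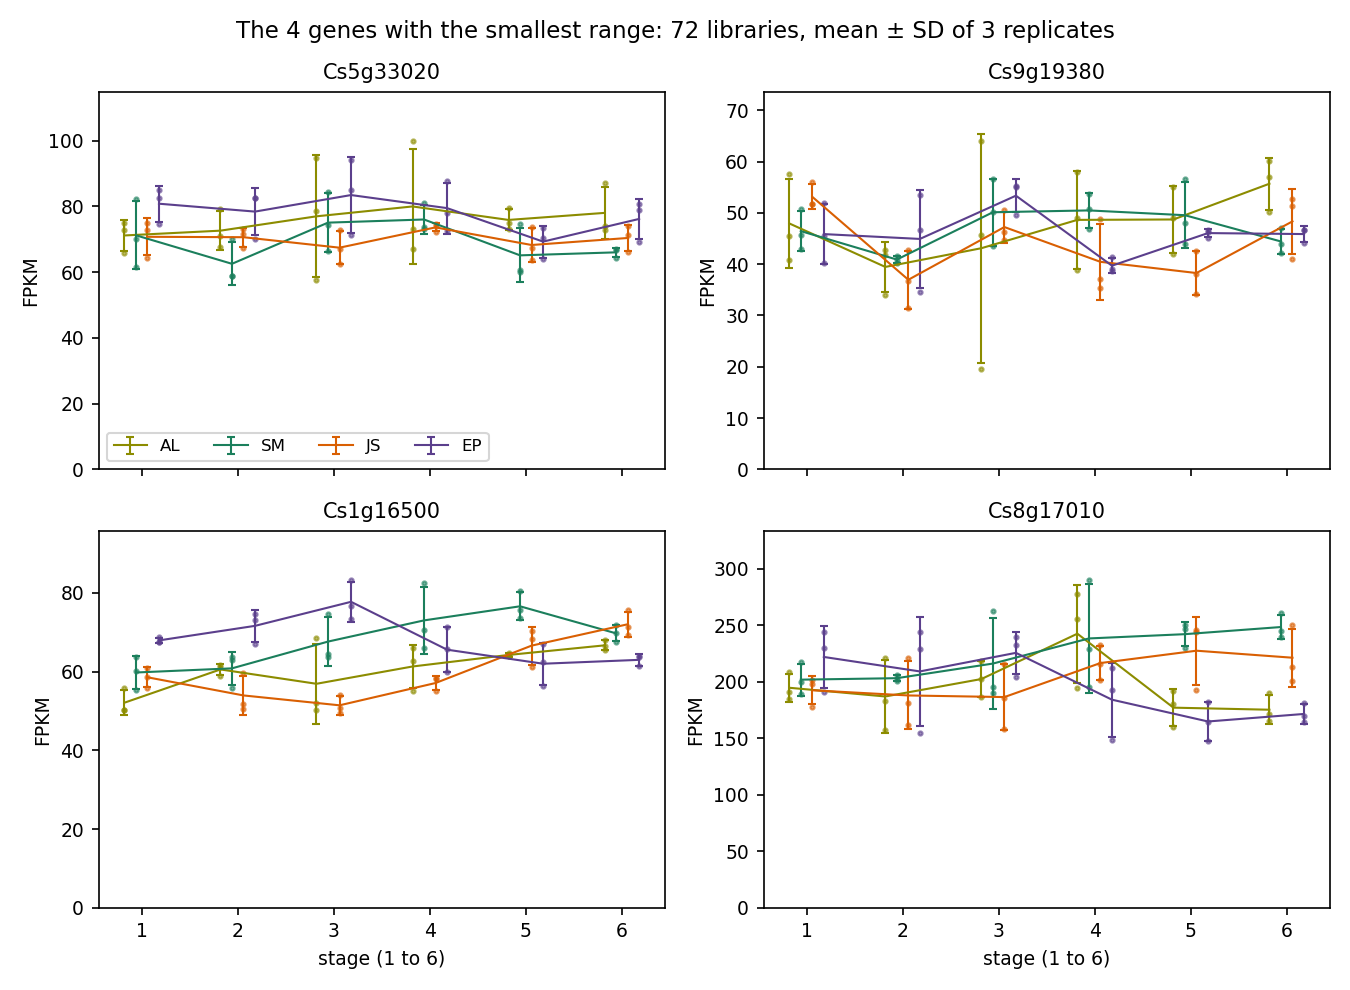
FPKM of the 4 members with the smallest range, at stages 1 to 6 on the x axis, with points for single libraries and lines and bars for the mean ± SD of 3 replicates of AL, SM, JS and EP. Cs5g33020 stays between 57.7 and 99.8 FPKM in all 72 libraries, and Cs9g19380 has its lowest and highest libraries, 19.6 and 64.0 FPKM, both at stage 3 of AL.

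The level limits admit only abundant genes, and among these the members were moderately expressed. Their mean FPKM had a median of 57.1 and a highest value of 275, against a median of 68.0 and a highest value of 1549 among all genes within the level limits. Of the members, 61 had a mean level of 5 to 6, 25 of 6 to 7 and 14 of 7 or more, against 1807, 929 and 648 genes within the limits. The most abundant members were Cs8g05340, with 175 to 395 FPKM over the libraries, and Cs1g14890, with 155 to 402 FPKM. At the other end, Cs7g22870 had 21.0 to 45.8 FPKM and orange1.1t02151 had 21.9 to 49.5 FPKM, and both lay just above the lower limit on the mean level. All members together made up 0.857% to 1.27% of the summed FPKM of a library, with a median of 1.04%.

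Gene length was not used by the rule. The median length recovered from the FPKM steps was 1481 bases for the members and 1574.5 bases for all genes within the limits, and the members ran between 219 and 3435 bases. In the naming of the table, 83 members had IDs that start with Cs and 17 had IDs that start with orange1.1t. Among all genes within the limits, 11.6% had orange1.1t IDs and 0.827% carried another kind of ID, which 0 of the members had.

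The spread between replicates was a further measure that the rule did not use, since it averaged the 3 replicates. The SD of log2(FPKM + 1) within groups had a median of 0.18 among the members, against 0.26 among all genes within the limits, and 93 of the 100 members lay below the median of those genes. The SD expected from the number of fragments alone had a median of 0.035 for the members, against 0.034 for all genes within the limits. The sources of the spread between replicates were not tested. The spread was larger at higher ranks by range. Genes ranked 101 to 200 had a median SD of 0.19, genes ranked 401 to 800 had 0.22, and genes ranked 1601 to 3384 had 0.34. A group mean of replicates that scatter less also scatters less itself, so the spread and the range are not fully separate measures.

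**Figure D2:**
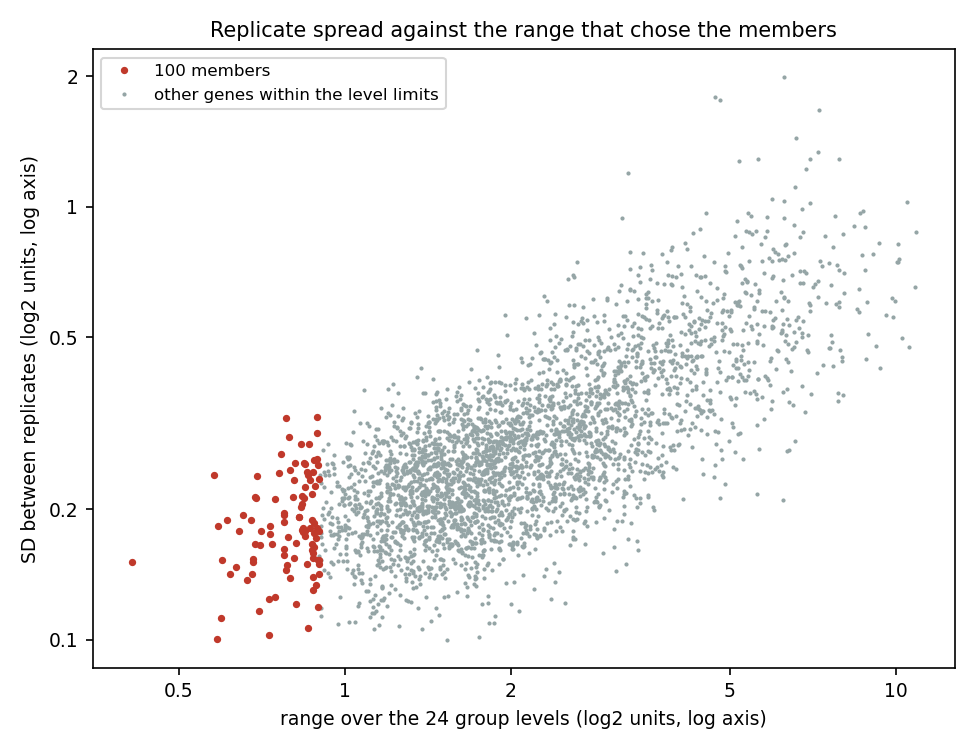
Pooled SD between replicates (y axis, log2 units, log scale) against the range over the 24 group levels (x axis, log2 units, log scale), with 1 point per gene, for the 100 members and the other genes within the level limits. The members lie at ranges of 0.41 to 0.90 with SDs of 0.10 to 0.33, and the SD becomes larger with the range across the other genes.

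Among the members, Cs1g16500 and Cs8g07440 had the smallest spread between replicates (both 0.10 log2 units), and orange1.1t02553 (0.33) and Cs9g07990 (0.32) had the largest. The 2 genes with the largest spread were also short, at 219 and 459 bases. Of the 4 members shorter than 500 bases the median spread was 0.29, and it was 0.16 for the 24 members of 2000 bases or more. The same direction held in part among all genes within the limits, with 0.32 for the 101 genes shorter than 500 bases and 0.28 for the 1005 of 2000 bases or more. In orange1.1t02553 the lowest library was replicate 1 of AL3 with 42.9 FPKM, and replicate 2 of the same group had 111 FPKM. In Cs9g07990 the same 2 libraries gave 19.1 and 98.2 FPKM, its lowest and its highest value in the whole series. Replicate 1 of AL3 was 1 of the 3 libraries that correlated best with a library of another group, so the lowest values of both genes come from such a library.

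To ask whether steadiness carried over to libraries that had no part in the choice, the rule was applied to 2 replicate numbers and the chosen genes were measured in the third. The 100 genes chosen without replicate 1 had a median range of 1.14 log2 units over the 24 libraries of replicate 1, against 2.23 for all genes within the limits. Without replicate 2 the values were 1.02 and 2.12, and without replicate 3 they were 1.05 and 2.13. In each of these 3 runs, 100 of the 100 chosen genes were below the median of all genes in the replicate held out. Between 72 and 81 of them were in the lowest decile there, and between 41 and 47 were among the lowest 100. The 24 single libraries of a replicate give wider ranges than group means, for chosen and other genes alike. The replicates came from the same orchard, tissues and stages.

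**Figure D3:**
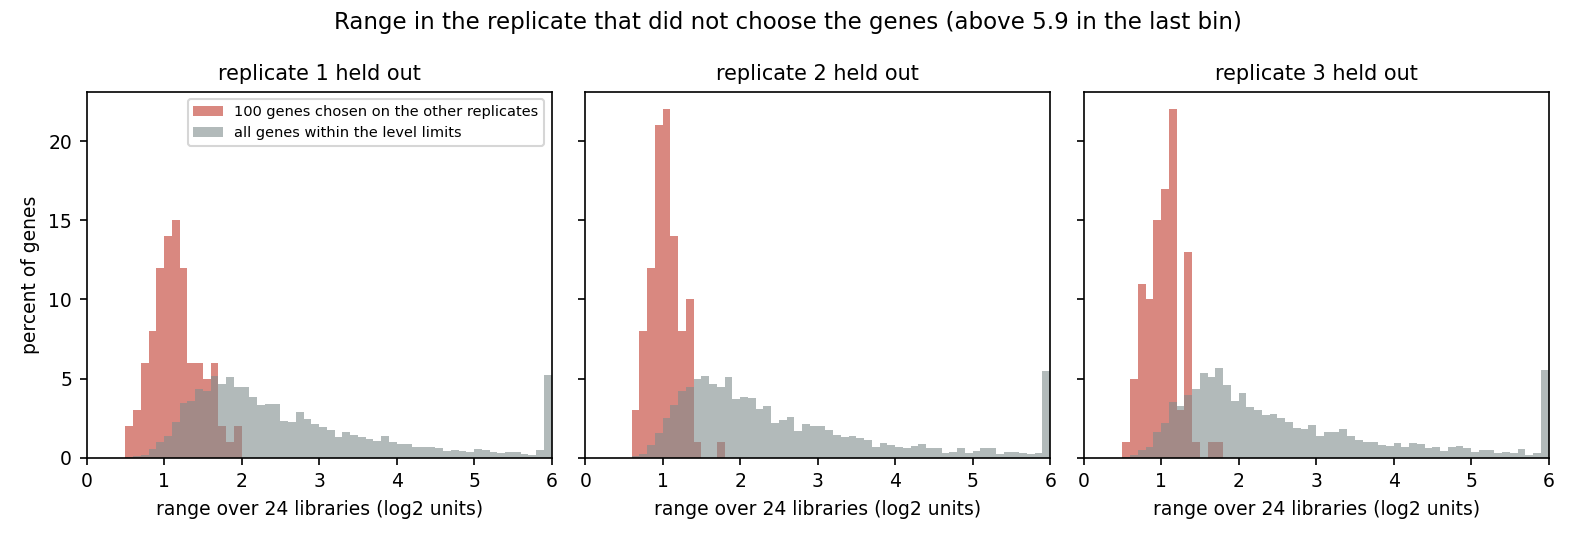
Percent of genes (y axis) by range over the 24 libraries of the replicate held out (x axis, log2 units), for the 100 genes chosen on the other 2 replicates and for all genes within the level limits, with 1 panel for each replicate held out. The chosen genes have medians of 1.14, 1.02 and 1.05 and all genes have medians of 2.23, 2.12 and 2.13, with ranges above 5.9 drawn in the last bin.

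Holding out a whole tissue was a harder case. Genes chosen on 3 tissues had a median range over the 6 stages of the fourth tissue of 0.63 log2 units in AL, 0.59 in SM, 0.59 in JS and 0.58 in EP. All genes within the limits had medians of 1.23 in AL, 1.29 in SM, 1.25 in JS and 0.96 in EP. Of the 100 chosen genes, 100 lay below the median of all genes in AL, 99 in SM, 94 in JS and 94 in EP, and between 41 and 52 were in the lowest decile. There were exceptions at the upper end: a gene that was steady in the other 3 tissues reached a range of 1.75 in JS, and another reached 1.72 in EP. A whole stage was also held out. Of the 100 genes chosen on the other 5 stages without stage 1, 22 kept all 4 tissues of stage 1 within their range over the other groups, against 43.7% of all genes within the limits, and the largest distance outside was 1.46 log2 units. At stages 2 to 6 the numbers were 50, 35, 68, 64 and 46, against 64.9%, 68.8%, 87.9%, 81.8% and 55.8% of all genes. The numbers of the chosen genes lay below the shares of all genes at every stage, without a test, and stage 1 was the lowest for both. A gene chosen for a narrow range also leaves a narrow interval to stay in.

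Within the members, no single factor of the design held most of the variation. In the median member, tissue took 14.8% of the sum of squares, stage 18.5%, the interaction of tissue and stage 24.4% and the replicates 31.8%. In all genes within the limits the medians were 19.3%, 41.5%, 16.1% and 14.4% in the same order. By raw share, the main effect of stage was the largest term there and the replicates were the largest in the members. The shares were not divided by degrees of freedom, of which the replicates have the most and tissue the fewest. A larger share is therefore not a larger effect. The choice of small ranges removes large effects of tissue and stage by construction. The median member spanned 0.25 log2 units over its 4 tissue means, and 0.52, 0.51, 0.48 and 0.45 log2 units over the stages of AL, SM, JS and EP.

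What remained was in part shared by many genes. In EP3, the median member was 0.20 log2 units above its own mean and the median of all genes within the limits was 0.14 above, and 87 of the 100 members lay above their own mean. EP3 was the highest group of 21 members, while it was the highest group of 6.68% of all genes within the limits. AL1 was the counterpart: the median member was 0.21 below its own mean, against 0.29 below for all genes within the limits, and AL1 was the lowest group of 21 members, against 12.03% of all genes. Both hold on the deposited scale alone: EP3 was the highest group of 0 members after division by the median ratio of each library and of 5 with the ratio over the genes within the limits, and AL1 was the lowest group of 0 and of 1. The median member deviated by -0.06 and 0.07 in EP3 under these scalings, and by -0.03 and 0.09 in AL1. By stage, the lowest group was at stage 1 for 34 members, near the 35.7% of all genes, and the highest was at stage 1 for 14 members, against 22.0%. The highest group was at stage 3 for 34 members, against 20.9% of all genes. In single libraries the median member ran between 0.33 below its mean in replicate 1 of AL3 and 0.28 above in replicate 1 of EP3. All genes within the limits deviated by -0.25 and 0.14 in these 2 libraries.

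Which tissue held the highest mean of a member depended on the scaling. In FPKM as deposited, EP had the highest tissue mean for 35 members, JS for 29, SM for 25 and AL for 11. When each library was divided by the median ratio of its genes to the mean library, EP was highest for 1 member and lowest for 83, SM was highest for 51 and JS for 44. The log2 of that ratio ran between -0.49 and 0.39 over the 72 libraries, with a median of -0.12 in JS, -0.09 in SM, 0.09 in AL and 0.27 in EP. With this scaling 2 of 100 members had an EP mean above their own mean, against 65 as deposited. The median range of the members was 0.94 log2 units after that scaling, and 61 of them exceeded the largest range of the set as deposited. A ratio taken only over the genes within the level limits gave a median range of 0.76, with 21 members above the largest deposited range. Steadiness and the direction of small tissue differences are therefore stated relative to the deposited scale.

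**Figure D4:**
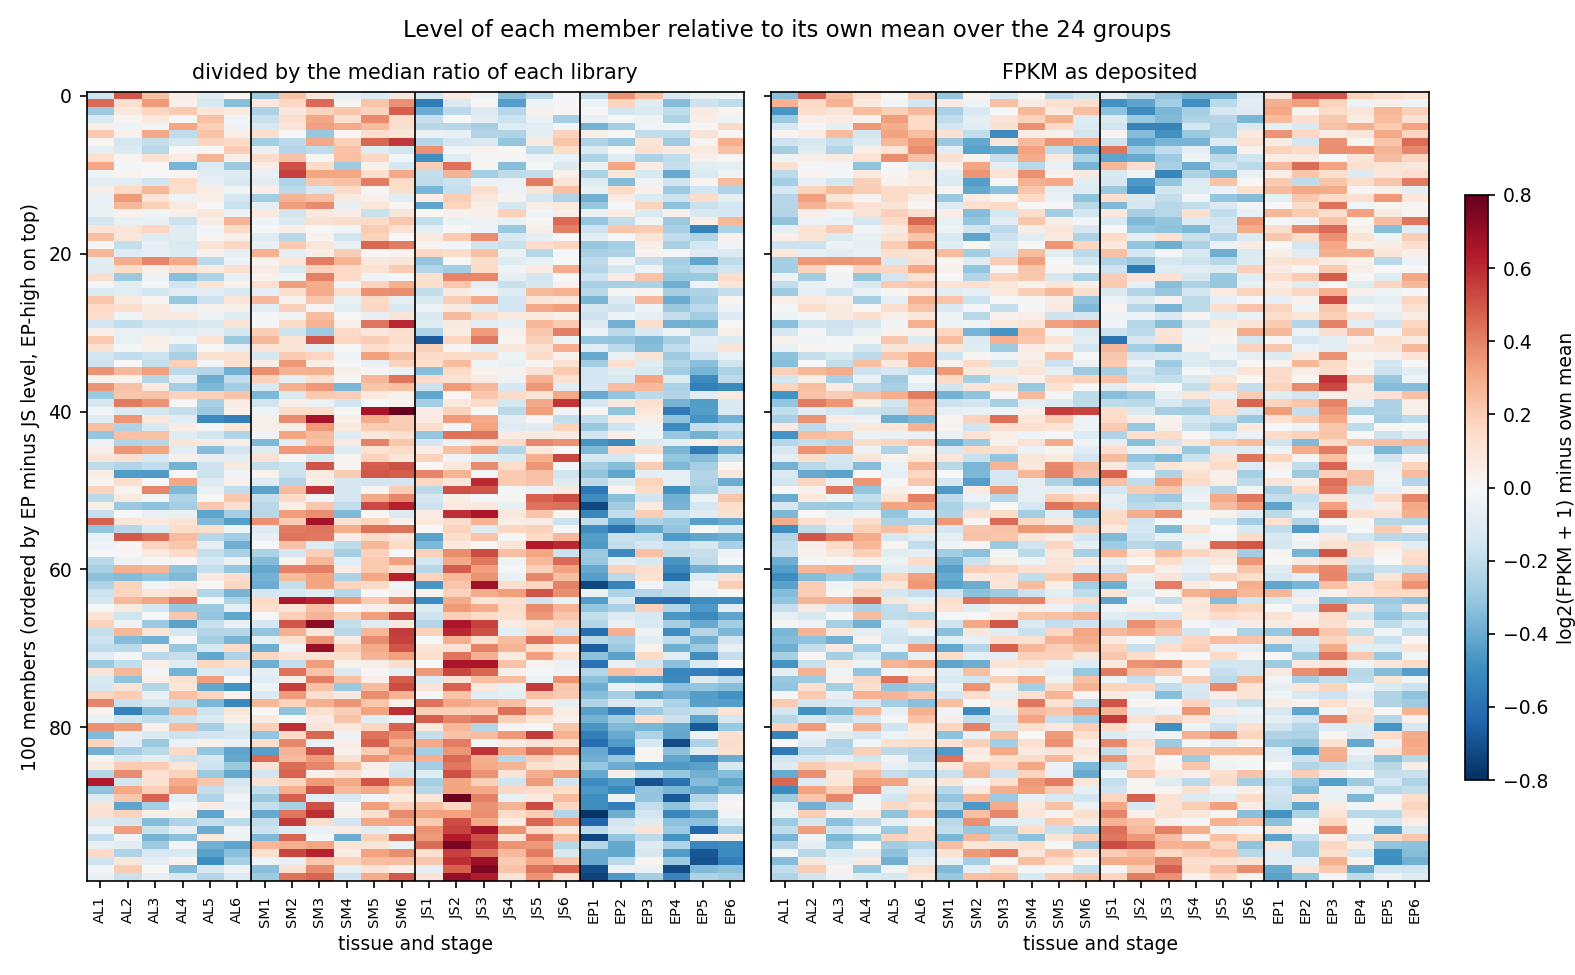
Level of each of the 100 members (1 line each, ordered by EP minus JS level) relative to its own mean over 24 groups (columns), in log2 units, after division by the median ratio of each library (left) and in FPKM as deposited (right). As deposited, EP lies above the own mean for 65 members and EP3 for 87, while after division EP lies above it for 2.

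With the gene of largest excess taken for each tissue, the differences between tissues were small. In EP this was orange1.1t01249, whose lowest, median and highest values were 31.2, 40.4 and 50.1 FPKM in EP. They were 21.4, 32.7 and 45.2 FPKM in AL, 20.9, 27.2 and 55.2 FPKM in SM, and 18.02, 31.4 and 51.3 FPKM in JS. The tissues overlapped, and the EP mean level was 0.30 log2 units above the next tissue as deposited and 0.01 above it after division by the median ratio.

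In JS the gene was Cs1g21570, with lowest, median and highest values of 77.2, 101.3 and 120 FPKM in JS, and its other tissue medians were 80.2 FPKM in AL, 82.2 FPKM in SM and 84.2 FPKM in EP. Its lowest JS library lay below those medians, so the libraries of JS overlapped with all other tissues. Its excess of 0.30 as deposited was 0.32 after division by the median ratio, and thus did not hinge on the scaling. In SM the gene was Cs7g02020, with a median of 39.6 FPKM in SM against 34.5 in AL, 31.4 in JS and 32.0 in EP and an excess of 0.23. In AL the gene was Cs5g20710, and its excess was 0.11.

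The study compared AL, SM and JS with EP at each stage, which made 18 comparisons of 3 libraries with 3. The members were tested together with all other genes in limma on log2(FPKM + 1), and a gene was called at a Benjamini-Hochberg adjusted p under 0.05. Of the 1800 tests of a member, 291 were called, 123 higher and 168 lower than in EP, which is 16.2%. Over all genes tested the called share was 50.2%, with 15% higher and 35.3% lower. The rule used these group means, so nothing is read from the difference between the 2 shares. At least 1 of the 18 comparisons called 92 of the members, and the largest log2 difference of a member was 0.89. The comparisons at a stage share the EP libraries.

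The number of members called differed between stages and depended on single libraries. In SM against EP, it was 3 at stage 1, 12 at stage 2, 22 at stage 3, 6 at stage 4, 38 at stage 5 and 44 at stage 6, where 54.2%, 52.2%, 59.4%, 43.6%, 66.7% and 69.2% of all genes were called. In JS against EP the counts were 18, 9, 28, 8, 29 and 35, with 60.9%, 49.1%, 56.5%, 53.4%, 57.1% and 62.6% of all genes. In AL against EP they were 18, 1, 1, 1, 6 and 12, with 60.3%, 19.7%, 26.5%, 36%, 35.9% and 42.1% of all genes. At stage 3, 28 members were lower in JS than in EP and 0 were higher by this limma test, while 45.3% of all genes were lower. Scaling turned this direction: after division by the median ratio, 23 members were called in JS3 against EP3 and all 23 were higher (48.4% of all genes called). Over the 18 comparisons, 42.3% of the calls of members were higher than EP as deposited, 98.5% after division by the median ratio and 98.3% with limma-voom on the recovered fragments, whose library sizes were set by the same kind of ratio. Leaving out single libraries of JS3 or EP3 gave between 10 and 29 calls, of which at most 1 was higher. The 10 came without replicate 2 of EP3 and the 29 without replicate 1 of JS3, where 39.4% and 58.7% of all genes were called. The count in JS5 against EP5 was 7 without replicate 1 of JS5 and 37 without replicate 3 of JS5 (36.8% and 67.9% of all genes called). That in AL1 against EP1 was 5 without replicate 2 of EP1 (47.9% of all genes). The share of all genes called moved along with these counts. A single fit of all groups called 26 members in AL1 against EP1 and 44 in AL3 against EP3 (57.3% and 46.8% of all genes). The order of the stages in AL thus did not hold. With the replicate number as a block, 44 members were called in JS3 against EP3 and 4 in AL1 against EP1 (63.3% and 51.3% of all genes).

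The ends of development, stage 6 and stage 1, were compared within each tissue. The comparisons called 39 members in AL (36 higher, 3 lower), 32 in SM (22 higher, 10 lower), 41 in JS (23 higher, 18 lower) and 26 in EP (17 higher, 9 lower), each adjusted over all genes tested. Of all genes, 67.6%, 69.6%, 76.2% and 61% were called in these comparisons, in the same order of tissues. Of the 400 tests of a member, 138 were called (98 higher, 40 lower), which is 34.5%, against 68.5% over all genes (30.2% higher, 38.3% lower). Of the calls of members, 71.0% were higher at stage 6 as deposited, 81.6% after division by the median ratio and 88.4% with limma-voom. In AL the direction turned with the scaling, with 18 calls after division by the median ratio (6 higher, 12 lower) and 16 with limma-voom (7 higher, 9 lower). Of all genes, 61.5% and 61.4% were called in these fits. Leaving out a single library gave 24 to 45 calls in AL, 22 to 33 in SM, 23 to 47 in JS and 10 to 27 in EP. The 10 came without replicate 1 of EP6, and 11 without replicate 2 of EP6. Of all genes, 58.1% to 68.1% were called in the runs of AL, 57.6% to 65.8% in SM, 68.4% to 76.0% in JS and 50.8% to 58.3% in EP.

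Regardless of calls, 85 members were higher at stage 6 than at stage 1 in AL, 54 in SM, 48 in JS and 50 in EP, against 63.4%, 58.1%, 49.3% and 53.9% of all genes within the limits. After division by the median ratio these numbers were 37, 77, 63 and 73, against 47.6%, 65.1%, 56.1% and 62.6% of all genes within the limits. The excess of higher members in AL thus turned into an excess of lower ones, and SM, JS and EP moved the other way. The shares of all genes within the limits moved in the same directions. With the ratio over the genes within the limits the members were 38, 28, 45 and 36, against 48.3%, 49.0%, 47.9% and 47.2% of those genes. Higher ones were thus the minority in each tissue, among the members and among all genes within the limits. The direction was the same in all 4 tissues for 14 members that were higher and 5 that were lower, against 30.0% and 18.8% of all genes within the limits. These numbers were 20 and 6 after division by the median ratio, against 33.2% and 17.8% of all genes within the limits. With the ratio over those genes they were 6 and 22, against 24.5% and 26.6%. That reversed the balance for the members and for all genes within the limits.

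Among members that moved the same way everywhere, orange1.1t02185 had the smallest spread of change among tissues. It had 95.0, 94.6 and 89.5 FPKM in AL6, against 74.0, 65.0 and 63.7 FPKM in AL1. In JS6 it had 96.6, 89.3 and 97.9 FPKM, against 79.8, 70.6 and 76.9 FPKM in JS1. The replicates of stage 6 lay above those of stage 1 in all 4 tissues, and the changes in level were 0.46 in AL, 0.35 in SM, 0.32 in JS and 0.43 in EP. After division by the median ratio they were 0.09, 0.57, 0.49 and 0.57, still positive in each.

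Cs8g07440 was the counterpart that fell. It had 118, 120 and 128 FPKM in AL6, against 192, 183 and 163 FPKM in AL1. In SM6 it had 129, 126 and 125 FPKM, against 169, 188 and 198 FPKM in SM1. Stage 6 lay below stage 1 without overlap in all 4 tissues, and the changes in level were -0.55 in AL, -0.55 in SM, -0.44 in JS and -0.35 in EP. Division by the median ratio kept the sign in each tissue, with -0.92, -0.32, -0.26 and -0.20. It was also 1 of the 2 members with the smallest spread between replicates, so its differences were large in relation to its replicates and small in relation to other genes.

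The member with the highest change in AL was Cs5g20710, with 85.9, 91.0 and 93.5 FPKM in AL6 against 51.5, 47.8 and 44.8 FPKM in AL1, a change in level of 0.89. The change was 0.53 after division by the median ratio and 0.55 with the ratio over the genes within the limits. Its AL2 libraries, with 86.0, 68.4 and 82.9 FPKM, already lay above all of AL1. Only replicate 1 of AL2, with 86.0 FPKM, reached the lowest of AL6, and it was 1 of the 3 libraries that correlated best with a library of another group. In SM the stages of Cs5g20710 overlapped, with 63.6, 53.5 and 58.0 FPKM in SM6 and 46.1, 55.8 and 52.8 FPKM in SM1. In EP the highest change was that of orange1.1t00028, with 174, 161 and 177 FPKM in EP6 against 99.3, 90.3 and 107 FPKM in EP1. The lowest change in EP was that of Cs1g13340, with 91.4, 96.5 and 87.8 FPKM in EP6 against 139, 141 and 119 FPKM in EP1.

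The juice sac held the member with the lowest change of all, Cs9g04230, with 65.0, 64.3 and 68.1 FPKM in JS6 against 107, 132 and 118 FPKM in JS1. Its change in level was -0.84 in JS, -0.54 in SM and -0.42 in EP, and in AL the stages overlapped with a change of 0.00. After division by the median ratio these were -0.67, -0.32, -0.28 and -0.36. Cs8g10760 was the member with the highest change in JS. It had 61.3, 67.6 and 67.0 FPKM in JS6 against 36.7, 39.4 and 36.6 FPKM in JS1. In AL, SM and EP its replicates of stage 6 and stage 1 overlapped. In SM the highest and lowest changes were those of orange1.1t01462 (0.77) and Cs1g08290 (-0.63). Cs1g08290 had 25.6, 26.1 and 25.6 FPKM in SM6 against 49.1, 40.8 and 31.7 FPKM in SM1, while in JS it went the other way, with 35.0, 32.5 and 35.3 FPKM in JS6 against 23.2, 32.1 and 23.3 FPKM in JS1.

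The largest spread of change among tissues was found in Cs9g06330. In JS6 it had 36.5, 33.3 and 37.1 FPKM, against 60.1, 55.2 and 63.7 FPKM in JS1. In EP6 it had 58.1, 50.8 and 39.9 FPKM, against 37.9, 34.0 and 24.4 FPKM in EP1. The replicates separated in JS and EP, in opposite directions. The changes in level were 0.26 in AL, 0.55 in SM, -0.73 in JS and 0.61 in EP, and after division by the median ratio they were -0.10, 0.78, -0.55 and 0.75.

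**Figure D5:**
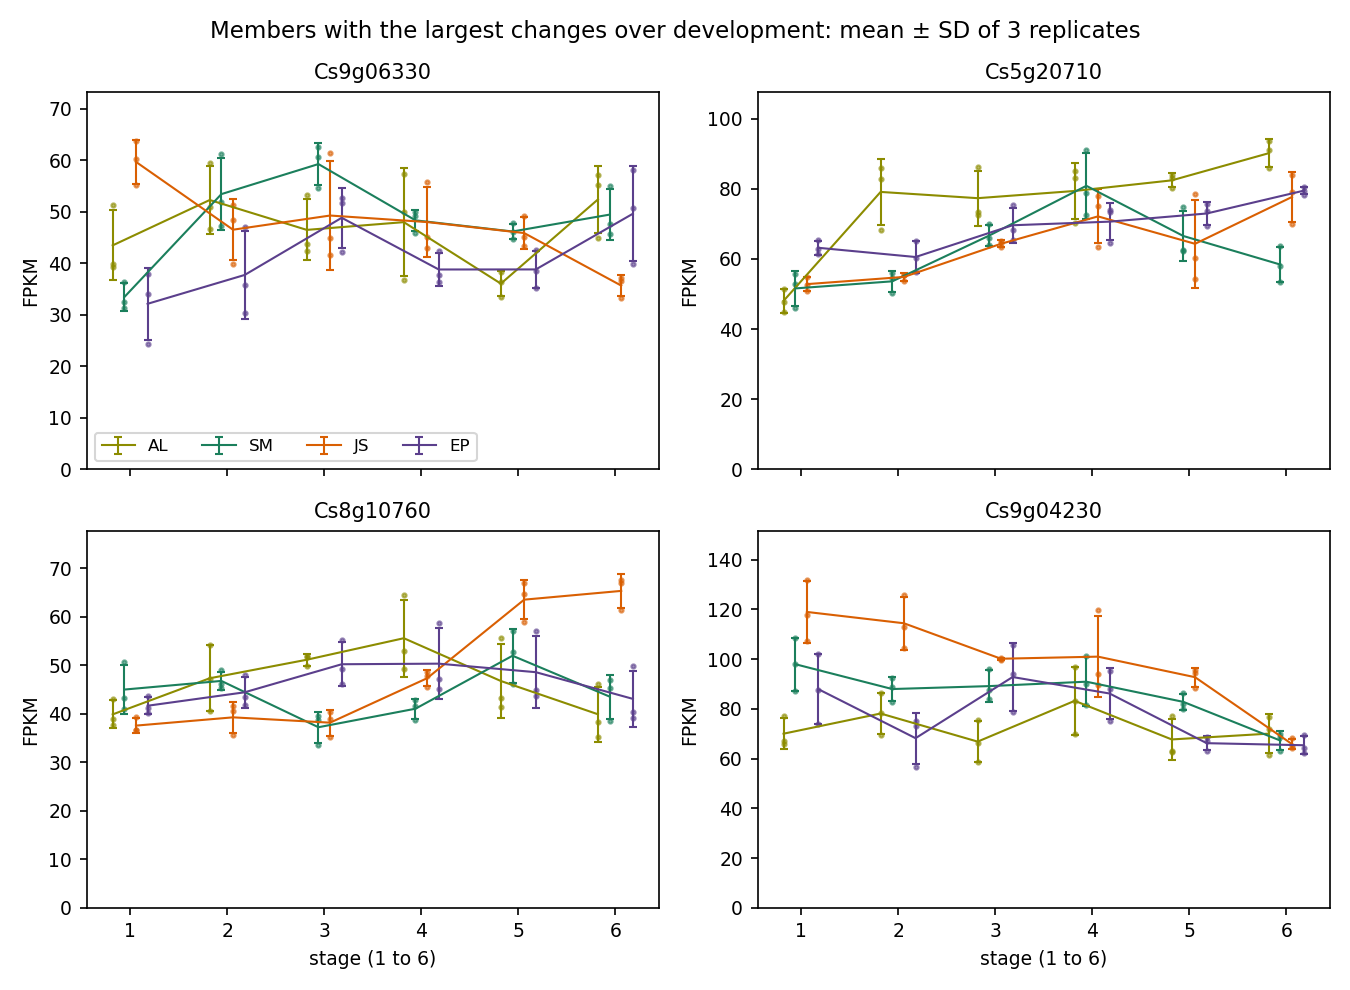
FPKM of 4 members with large changes over development, at stages 1 to 6 on the x axis, with points for single libraries and lines and bars for the mean ± SD of 3 replicates of AL, SM, JS and EP. Cs9g06330 has a lower stage 6 than stage 1 in JS and a higher one in SM and EP, Cs5g20710 is higher at stage 6 in AL, Cs8g10760 is higher at stage 6 in JS, and Cs9g04230 is lower at stage 6 in JS, SM and EP.

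In an F-test of all 72 libraries, the change between stage 1 and stage 6 differed among tissues for 46 of the 100 members at an adjusted p under 0.05 in limma, against 75.3% of all 20077 genes tested. In an F-test over all 24 groups, 96 members differed among groups, against 99.5% of all genes. The 4 members that were not called were Cs5g33020, Cs9g19380, orange1.1t00350 and Cs4g01620, and the last 2 of these are named because of this outcome. The range that chose the members keeps the levels of a member in any 2 groups within 0.90 log2 units of each other.

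Between consecutive stages, which were the other comparisons of the study, 67 of 2000 tests of a member were called (35 higher, 32 lower), which is 3.35%, against 18.8% over all genes (7.87% higher, 10.9% lower). At this threshold 51 members were called at least once, and the largest log2 change of a member was 0.87. In the fits of 6 libraries, the highest counts were in the segment membrane early in development. They were 18 members in SM2 against SM1 (15 higher, 3 lower, 55.5% of all genes called) and 10 in SM3 against SM2 (7 higher, 3 lower, 28.2% of all genes called). This order did not hold in a single fit of all groups, with 31 members in AL2 against AL1 and 22 in SM2 against SM1 (44.3% and 45.9% of all genes). After division by the median ratio, JS2 against JS1 had 20 and SM3 against SM2 had 6 (39.3% and 30.8% of all genes). Leaving out single libraries gave between 9 and 24 members in SM2 against SM1. The 9 were reached without replicate 2 of SM1 or of SM2, where 42.2% and 44.4% of all genes were called. In SM3 against SM2 the count was 0 without replicate 2 or 3 of SM2, 1 without replicate 2 of SM3 and 21 without replicate 1 of SM3. Of all genes, 13.1%, 15.6%, 14.9% and 38.6% were called in these runs, in the same order. In EP the highest count of the fits of 6 libraries was 7 members in EP4 against EP3, all lower, where 20.8% of all genes were called and 9.83% were lower. The count was 0 without replicate 2 of EP3 or without replicate 1 or 2 of EP4, where 6.58%, 9.60% and 6.25% of all genes were called. In the single fit it was 12, below the 16 of EP3 against EP2 (18.9% and 16.5% of all genes called). Consecutive comparisons share the libraries of a stage. As in the comparison of the ends, scaling moved the split: 52.2% of the calls of members were higher as deposited, 80.0% after division by the median ratio and 83.9% with limma-voom.

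Over all 42 comparisons, Cs5g33020 was the only member without a call, which describes the choice over again, since the tests use the group means that ranked it at place 1. Of its 42 tests in limma, 0 had an unadjusted p under 0.05 as deposited, 1 did after division by the median ratio and 1 did with limma-voom, and 0 passed the adjusted threshold in any of them. The most calls, 12, belonged to orange1.1t01249.

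The members did not move as 1 block. Over the 24 groups, the first 3 principal components of their levels took 19.98%, 15.8% and 12.3% of the variance. The median correlation between 2 members over the 24 groups was 0.12, against 0.03 for pairs of all genes within the limits. A correlation above 0.7 was found for 67 of 4950 pairs of members (1.35%) and one below -0.7 for 2 pairs, against 3.75% and 2.38% of the pairs of all genes within the limits. Groups share the scaling of their libraries, so these correlations are a description.

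How far the list depended on single libraries and on the rule was counted by choosing it again. With any 1 of the 72 libraries left out, 84 to 100 of the members were chosen again, with the lowest number without replicate 2 of AL3, and 35 members were chosen in all 72 runs. With 13 other settings of the rule (other measures of spread, level limits, pseudocount, scaling or replicates), 9 members were chosen every time. A mean level of at least 6 was 1 of these settings and only 39 members passed it, so the 9 reflect level as well as range. Cs5g33020 was ranked at place 1 in all 72 runs and in 11 of the 13 settings. It was at place 2 after division by the median ratio, and at place 8 after division by the ratio over the genes within the level limits. Of the 4 members with the smallest range, Cs1g16500 was also among the 9.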

How the data were processed

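Poly(A) RNA of the 72 samples was sequenced. The authors mapped the reads to the *C. sinensis* genome, counted fragments per gene and deposited them as FPKM, with 1 value for each gene in each library. TopHat2, Cufflinks and HTSeq 0.6.1 are the tools that the submitters list, and the genome build is not given in the sources used here. All 72 columns were matched to samples by name. Whether counting used strand, or how it split fragments of near-identical genes, was not given.

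Fragments and gene lengths were recovered from the FPKM steps and came out whole for 27759 of 27759 genes above 0 (tolerances 0.0001 fragments and 0.02 bases), which gave the library sizes and the counting error. Levels were log2(mean FPKM + 1), with a pseudocount of 1. The level limits, the range and the number of members followed the given rule, and the members, lists and tests were chosen with earlier results of these data known. Named genes were the 4 steadiest, the 2 on each side of the edge, and members with extreme level, spread, tissue excess or stage 6 change.

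Comparisons were fitted on their 6 libraries, or on all 72 for the F-tests, with limma 3.58.1 in R 4.3.3 (trend and robust settings) for genes with at least 1 FPKM in at least 3 libraries, with Benjamini-Hochberg adjustment over all genes tested. Recovered fragments were used only for limma-voom, an alternative. The other alternatives changed the scaling, pseudocount, filter, rule, replicates or fit, and the scaling over genes within the level limits was added after seeing the data. Scripts (Python 3.11.15, numpy 2.4.6, pandas 2.3.3, matplotlib 3.10.9) were tested on simulated data.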

Additional observations from a re-analysis of the deposited data

Results flagged for a closer look

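For 16 of the named members, the change between stage 1 and stage 6 differed among the 4 tissues in the limma F-test over 72 libraries (adjusted p under 0.05). The same test called 46 of all 100 members and 75.3% of all genes, and the levels it compares also entered the choice of the members. The size given for each is the highest minus the lowest change of a tissue, in log2 units. It was largest for Cs9g06330 (1.3384), followed by orange1.1t01249 (1.0319), orange1.1t02553 (1.0112) and Cs1g08290 (1.0079). For orange1.1t01462 it was 0.9437, for Cs1g21570 0.9059, for Cs7g22870 0.852 and for Cs9g04230 0.8449. For Cs7g02020 it was 0.831, for Cs8g10760 0.8286, for Cs8g05340 0.823 and for Cs5g20710 0.7195. It was smallest for Cs1g13340 (0.669), Cs8g17010 (0.668), orange1.1t00028 (0.6304) and Cs1g16500 (0.457). After division by the median ratio, the number of members called by the test was 41.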

How the results depend on the processing

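The members chosen again fell to 52 after division by the median ratio, to 53 with a mean level of at least 4 and to 39 with at least 6, where only 39 members passed the limit. The other planned settings kept 73 to 100 members, including all runs without a library or a replicate number. The width of the median deviations of the members over libraries was 0.612 log2 units as deposited, 0.8214 after division by the median ratio and 0.3586 with the ratio over the genes within the level limits. Calls between consecutive stages were 67 as reported, 43 without the filter on low values and 187 in a single fit of 24 groups (18.8%, 11.8% and 19.8% over all genes). Calls against EP were 291 as reported, 457 after division by the median ratio and 461 with limma-voom (50.2%, 46.9% and 46.5% over all genes). The causes were not tested.

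Leaving out a library or a whole replicate number gave 6 to 93 calls between consecutive stages, 78 to 300 against EP and 72 to 144 for stage 6 against stage 1. The F-tests were rerun only without a whole replicate number, which gave 9 to 41 calls for the change among tissues and 69 to 96 for any group. The low ends came without replicate 2 of every group (6, 78, 72 and 9) or without replicate 3 (69), where 2 libraries were left per group, and 72 was also the count for stage 6 without replicate 1. Without replicate 1 there were 131 calls against EP (33.1% over all genes), and without replicate 3 there were 15 for the change among tissues. Without replicate 2, the shares over all genes were 6.4% between consecutive stages, 28.2% against EP and 51.15% for stage 6 against stage 1. Over the settings tried, the median range in a held-out replicate was 1.04 to 1.06 log2 units, that in a held-out tissue was 0.57 to 0.65 and the replicate spread was 0.15 to 0.21.

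A replicate was a pool of fruit from 3 trees. Per the paper, the same set of trees was sampled at every stage, and its protocol separates the tissues in turn from the sampled fruit. Libraries of different stages and tissues can therefore share trees or fruit. Whether a number marks the same trees in every tissue and stage is not stated. The main fits and F-tests treated the libraries as independent, so their adjusted p-values do not allow for shared trees or fruit. In 8 of 42 comparisons the deviations of all 3 same-numbered pairs correlated above 0.1, among them AL against EP at stages 2, 4, 5 and 6 and JS3 against EP3. Over all 42 comparisons the mean correlation of same-numbered pairs was 0.0997 (15307 genes). In 5 of the 42, every library correlated best with its own number. With a replicate block the calls were 53 between consecutive stages, 282 against EP and 117 for stage 6 against stage 1 (18.8%, 51.4% and 67.1% over all genes). They were 49 for the change among tissues and 97 for any group. Single comparisons moved by more, JS3 against EP3 to 44 and AL1 against EP1 to 4 (63.3% and 51.3% of all genes).

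With 3 libraries per group, small changes cannot be told from replicate spread. The level limits restrict the results to abundant genes, and the members cannot be checked outside this cultivar and orchard here.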
